A study of Homo sapiens with 12 samples.

Results

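Messenger RNA levels were compared between senescent (Sen) and proliferating (Pro) IMR90 cells, a line of normal human lung fibroblasts, to describe which gene functions are switched on, switched off or shifted when these cells stop dividing. The comparison rests on 6 RNA-seq libraries of poly(A)-selected RNA, 3 per state, chosen by their labels out of 12 libraries in the series. The other 6 libraries are ribosome footprints and were not used here. Proliferating cultures were at an early passage, and senescent cultures had been passaged until they stopped dividing, in the same medium and without a drug or an introduced gene named in the labels. By the study's methods, cultures of both states were collected in a polysome buffer that held cycloheximide, and the RNA came from part of each lysate. The labels describe the 3 cultures of a state as independent replicas, and p-values measure the spread between them. The culture notes name 2 isolates of the line without tying samples to them, so isolate and state cannot be told apart. Files of the proliferating RNA-seq samples are marked with letters close to DMSO, a common solvent, which no label mentions, so whether solvent was given is not known.

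Replicative senescence is a lasting exit from the cell cycle that normal fibroblasts enter after many divisions. It is known for high levels of the cyclin-dependent kinase (CDK) inhibitors p21 and p16, loss of lamin B1 and of chromatin proteins, an enlarged lysosomal compartment and a senescence-associated secretory phenotype (SASP) of cytokines, growth factors and proteases. Genes of the cell cycle are held down in such cells by RB-family proteins, which act on E2F sites, and by the DREAM complex, which acts on E2F sites and on the cell cycle homology region (CHR).

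The value of a gene was the sum of the reads that the authors assigned to its 5′ UTR, coding sequence and 3′ UTR. These sums numbered from 7903257 to 14145313 per library over 17058 gene symbols with a read. Levels are given as CPM, counts relative to library size, scaled with TMM factors, the edgeR default, with the SD over 3 libraries. CPM is not divided by gene length, so levels are compared between the states for 1 gene and not between genes. Over log levels of the genes that had enough reads to be tested, Pearson's r was 0.992 to 0.995 within a state and 0.924 to 0.927 between the states. On the same genes the first principal component, which separated the states, held 89.1% of the variance. The 3′ UTR share of mRNA reads was between 24.7% and 25.1% in proliferating and between 26.8% and 28.9% in senescent libraries, and its part in the results was not tested beyond a repeat with coding reads alone. In bulk RNA, fewer cells of a type and less RNA per cell cannot be told apart.

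The fibroblast label was checked against marker genes. All 15 fibroblast markers were tested, and their summed level lay between 36706 and 41526 CPM in proliferating and between 33169 and 38800 CPM in senescent libraries. COL1A1 was the largest part of it (14251 ± 1085 and 13234 ± 1515 CPM). By the test described below, FBLN1 (log2 -1.53), COL3A1 (-0.94), DCN (-0.61), COL6A1 (-0.60), COL6A2 (-0.59) and PDGFRB (-0.35) were lower. S100A4 (1.36), THY1 (0.45), LUM (0.45), FAP (0.40) and FN1 (0.25, with overlapping groups) were higher. COL1A1, COL1A2, VIM and PDGFRA were not called. Of the markers of other cell types, 4 of 15 epithelial, 3 of 10 endothelial and 1 of 14 immune genes had enough reads to be tested. Defining genes of these types, namely EPCAM, CDH1, PECAM1, CDH5 and PTPRC, stayed under 1 CPM on average in both states. The summed epithelial markers, mostly the keratin KRT18, lay between 309.6 and 332 CPM in proliferating and between 242 and 264 CPM in senescent libraries. The summed endothelial markers lay between 66.2 and 71.7 CPM and between 122 and 132 CPM, and came largely from TEK, a receptor of angiopoietins (58.1 ± 4.08 and 100.2 ± 7.08 CPM). The summed immune markers, mostly the lysosomal protein CD68, lay between 20.5 and 22.5 CPM and between 33.9 and 36.4 CPM. The epithelial, endothelial and immune sums did not overlap between the states, whereas the fibroblast sums did, and their part in the results was not tested.

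Differences are given as log2 of senescent over proliferating levels with their standard error (SE), from the quasi-likelihood test of edgeR. A gene was called when its adjusted p (Benjamini-Hochberg) was under 0.15, the 15% false discovery rate of the study's methods. Of 12840 genes tested, 9429 were called (73.4%). Higher levels in senescent cells were called for 4612 (35.9% of those tested) and lower levels for 4817 (37.5%). For 67.7% of tested genes the 3 senescent libraries did not overlap the 3 proliferating ones. Most changes were small, with a median size of 0.39 on the log2 scale against a median SE of 0.10. A change of at least 2-fold was called upward for 956 genes and downward for 1017, one of at least 4-fold for 277 and 238, and one of at least 16-fold for 48 and 28. With plain library totals in place of TMM factors the median fold change of all genes moved to -0.11, so directions are relative to TMM scaling.

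**Figure D1:**
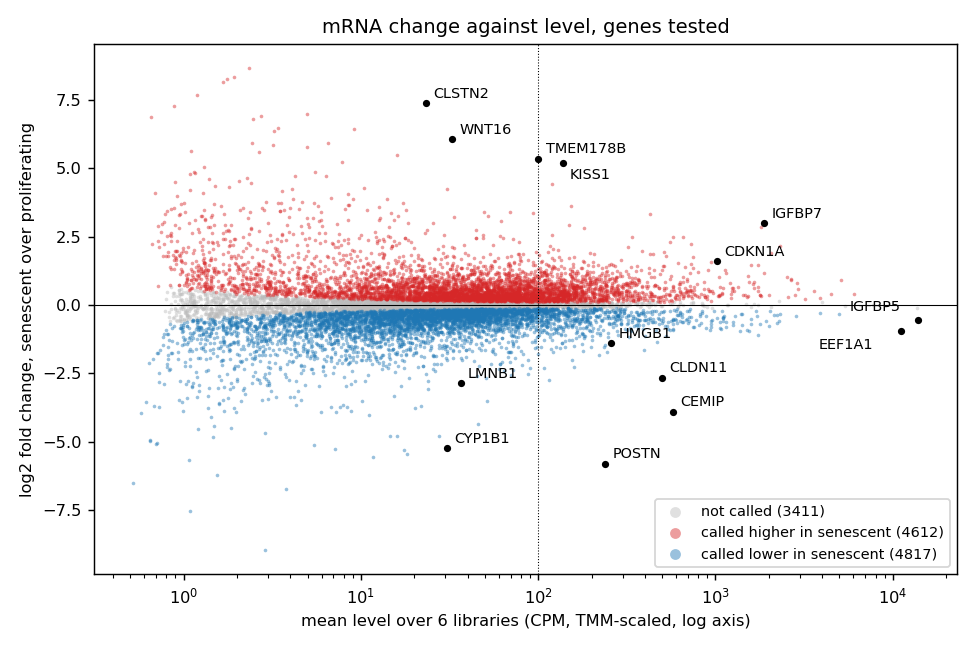
Each point is 1 of the 12840 genes tested, with its mean level over the 6 libraries (CPM, log axis) against its log2 fold change of senescent over proliferating cells. Red and blue points were called higher (4612) and lower (4817), grey points were not called, and the dotted line marks 100 CPM. Named genes include POSTN at -5.80 and TMEM178B at 5.35.

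Genes averaging at least 100 CPM, 2064 in number and called well-counted here, tilted upward. Among them 1091 were called higher and 623 lower, and 169 rose against 63 that fell by more than 2-fold. In the range from 1 to 10 CPM the balance lay the other way, with 864 called higher and 1304 called lower out of 3242. When genes with a read were sorted into levels under 0.5, up to 5, up to 50, up to 500 and over 500 CPM, 14379 of 17058 stayed in the same class. A jump of 2 or more classes was found upward for 24 genes and downward for 11. These genes were selected by their values and are given as a description. From under 0.5 CPM to over 5 CPM went CLSTN2, a synaptic cadherin-like protein (0.251 to 46.2 CPM), MXRA5, a matrix protein (0.182 to 12.8 CPM), ITGA8, an integrin subunit (0.396 to 15.2 CPM), PDGFB, a platelet-derived growth factor (0.194 to 9.72 CPM), and the transcription factor RUNX3 (0.471 to 6.64 CPM). In the other direction went the chemokine CXCL12 (22.9 to 0.456 CPM), the planar polarity protein VANGL2 (13.9 to 0.337 CPM), the retinoic acid-binding protein CRABP2 (5.15 to 0.405 CPM) and, from the class above, prostacyclin synthase PTGIS (86.9 to 4.19 CPM) and the xenobiotic and steroid hydroxylase CYP1B1 (59.3 to 1.58 CPM).

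Genes known to mark senescence moved as follows. CDKN1A, which encodes p21, was at 512, 510 and 494 CPM in Pro 1, 2 and 3 and at 1541, 1458 and 1584 CPM in Sen 1, 2 and 3. All senescent libraries lay above all proliferating ones, with a log2 fold change of 1.60 ± 0.07 (SE, edgeR adjusted p = 8.01e-14). CDKN2A, which encodes p16 and ARF, was at 43.1, 50.9 and 52.2 CPM against 73.4, 67 and 83.6 CPM, a smaller rise of 0.61 ± 0.09 (edgeR adjusted p = 6.54e-06). LMNB1, the lamin B1 gene, fell from 65.7, 58.1 and 68.8 CPM to 10, 7.81 and 9.06 CPM, and the proliferation marker MKI67 from 148, 152 and 149 CPM to 30.8, 28.1 and 32.2 CPM. HMGB1, an abundant nuclear DNA-bending protein, was at 386, 354 and 378 CPM against 142, 148 and 136 CPM, a log2 fold change of -1.39 ± 0.07 (edgeR adjusted p = 7.05e-13). None of these 5 genes overlapped between the states.

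Among well-counted genes, the losses were led by matrix and cell surface proteins. POSTN, which encodes the matricellular protein periostin, was at 444, 469 and 495 CPM in proliferating and at 8.45, 8.47 and 8.24 CPM in senescent libraries. The 55.9-fold drop (log2 -5.80 ± 0.09, edgeR adjusted p = 1.61e-20) was the largest among well-counted genes whose libraries did not overlap. CEMIP, a protein needed for hyaluronan breakdown, went from 1009, 1079 and 1141 CPM to 77.7, 63.6 and 75.6 CPM (log2 -3.90 ± 0.09). CLDN11, a tight junction claudin, went from 831, 870 and 899 CPM to 133, 140 and 139 CPM (log2 -2.66 ± 0.07). COL15A1, a collagen next to basement membranes, fell by 2.76 on the log2 scale, and PCOLCE, an enhancer of procollagen processing, by 2.31. The proteoglycan BGN fell by 1.71 and the complement protease C1R by 1.69. Outside the matrix, the lowest 12 held PHGDH, the first enzyme of serine synthesis (264 ± 6.72 to 54.4 ± 3.03 CPM), the cytoskeletal regulator DPYSL3, the quinone reductase NQO1, and the chromatin-associated proteins HMGN2 and PTMA, the last of which went from 599 ± 20.9 to 191 ± 5.47 CPM.

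The gains among well-counted genes were led by a membrane protein and a secreted peptide. TMEM178B, a transmembrane protein, was at 4.14, 4.71 and 5.43 CPM in proliferating and 199, 177 and 212 CPM in senescent libraries (log2 5.35 ± 0.11, edgeR adjusted p = 1.18e-18). KISS1, the precursor of the kisspeptin hormones, was at 6.82, 7.28 and 7.68 CPM against 299, 256 and 248 CPM (36.7-fold). ANKRD1, a muscle ankyrin repeat protein and a known target of the coactivator YAP, was at 11.7, 11.2 and 9.27 CPM against 214, 251 and 220 CPM (log2 4.42 ± 0.10). In each of these genes the lowest senescent library was more than 10 times the highest proliferating one. A second claudin moved opposite to CLDN11, as CLDN1 rose from 22.8 ± 1.56 to 285 ± 18.3 CPM. The protease inhibitors SERPINE2 (77.6 ± 1.55 to 773 ± 34.2 CPM) and WFDC1 (34.9 ± 4.99 to 263 ± 12.2 CPM) rose, as did the protease PLAT, tissue plasminogen activator (199.9 ± 9.73 to 1114 ± 48.1 CPM). IGFBP7 went from 408, 432 and 427 CPM to 3324, 3524 and 3208 CPM, and IGFBP3 from 433, 442 and 437 CPM to 3153, 3187 and 3122 CPM. Both bind insulin-like growth factors, and the growth factor IGF2 rose as well, from 44.7 ± 2.81 to 320 ± 38.2 CPM (log2 2.84 ± 0.09). The list of the 12 highest is completed by the glycogen-targeting phosphatase subunit PPP1R3C and by TNFRSF10D, a decoy receptor of the death ligand TRAIL.

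**Figure D2:**
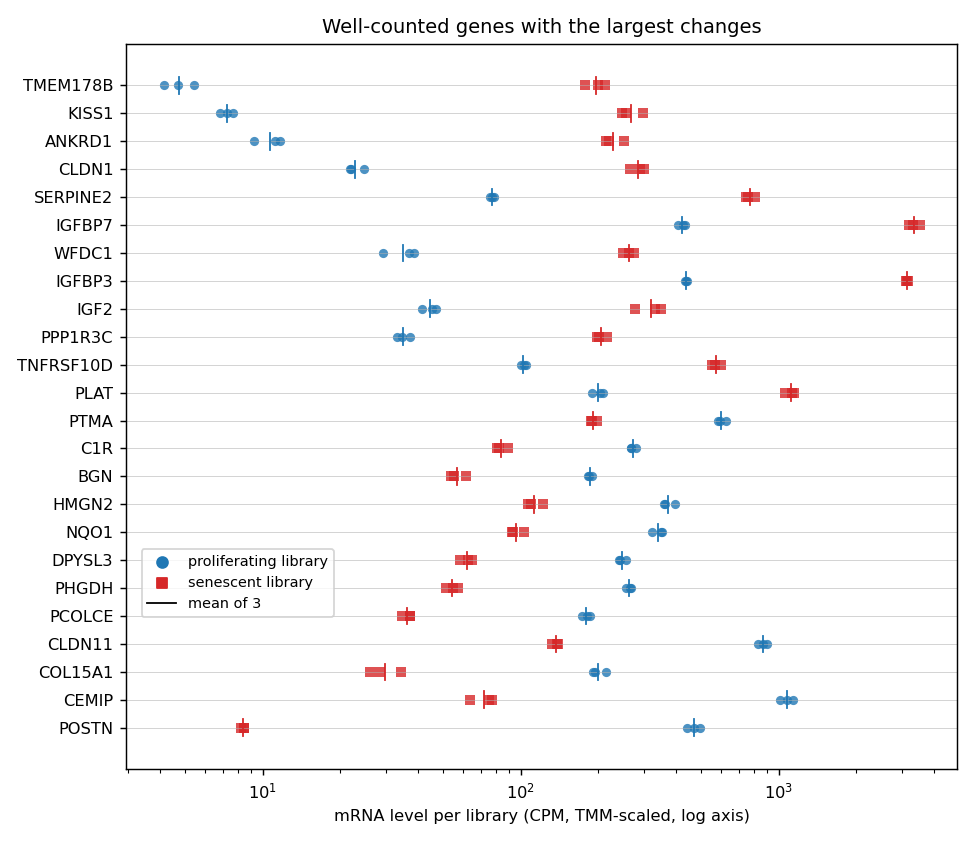
Levels of 24 genes with a mean of at least 100 CPM, the 12 largest gains and the 12 largest losses whose libraries did not overlap, in each library (CPM, log axis). Blue circles are proliferating and red squares senescent libraries, and short lines are means of 3. POSTN lies between 444 and 495 CPM in proliferating and between 8.24 and 8.47 CPM in senescent libraries.

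Among the D-type cyclins, which pair with CDK4 and CDK6 and are named here after their values were seen, CCND1 rose from 850 ± 16.5 to 3787 ± 346 CPM and CCND2 from 16.6 ± 0.174 to 171 ± 14.1 CPM. CCND1 and CCND2 are the only D-type cyclins described here, so their rise does not speak for the whole group. Genes that carry cells through S phase and mitosis fell.

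A gene was called near silent in 1 state when each of its 3 libraries there held at most 3 reads while each library of the other state held at least 10. This rule reads the groups themselves, so the genes it finds are a description. It found 57 genes near silent in proliferating and 28 in senescent cells, and with limits of 0.5 and 1 CPM in place of the reads it found 89 and 53. Their levels were low, with a median of 2.05 CPM in the expressing senescent cells and 2.15 CPM in the expressing proliferating cells. In 9 of the 57 and 3 of the 28, no read at all was found in the silent state. Folds below are ratios of summed reads to summed scaled library sizes with an exact 95% interval for counting error alone, and where no read was found they are bounds against 3 reads in the shallowest library of the silent state, that is 0.365 CPM for the proliferating and 0.317 CPM for the senescent state.

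Of the 57 genes near silent in proliferating cells, ZPLD1, a zona pellucida domain protein, had the highest senescent level, with 0, 3 and 3 reads in Pro 1, 2 and 3 against 188, 229 and 192 reads in Sen 1, 2 and 3. That is a 91-fold ratio (41.6 to 249). TENM1, a teneurin of the cell surface, had 0, 2 and 0 against 94, 130 and 112 reads, a ratio of 151 (41.4 to 1248). FOXE1, a forkhead transcription factor of the thyroid, had 0, 1 and 0 against 53, 61 and 68 reads. The same on and off pattern held for PCSK6, a proprotein convertase, with a ratio of 104 (28.3 to 859.9), and for DKK2, a secreted WNT modulator, with a ratio of 97.2 (26.6 to 808). No proliferating library held a read of C5orf46, which was at least 12.8-fold higher, of CSF2RB, the common beta chain of the IL-3, IL-5 and GM-CSF receptors (at least 10.5-fold), or of EHF, an epithelial ETS factor (at least 9.7-fold).

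Sorted by known role after their counts were seen, 9 of the 57 were cell surface receptors, at 1.76 to 5.24 CPM in senescent cells. They include TLR4, the receptor of bacterial lipopolysaccharide, with 0, 1 and 1 against 49, 58 and 54 reads, IL12RB2 of the interleukin-12 receptor, the chemokine receptors CXCR4 and ACKR3, and the scavenger receptor MSR1. The cytokine CXCL12, which binds both CXCR4 and ACKR3, was among the losses given above. Proteases or their inhibitors were 8 (among them MMP10, SERPINA9 and the cystatins CST1 and CST4), secreted ligands or antagonists 7 (DKK2, INHBB, AREG and WNT10B among them) and developmental transcription factors 4 (FOXE1, EHF, NKX6-1 and GBX2). Near-identical copies within this set, namely RFPL4A with RFPL4AL1, CST1 with CST4 and the pregnancy-specific glycoproteins PSG2 and PSG11, may share reads, and their separate values are uncertain.

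Of the 28 genes near silent in senescent cells, DOK5, an adaptor of receptor tyrosine kinases, had the highest proliferating level, with 60, 105 and 66 reads in Pro 1, 2 and 3 against 1, 1 and 0 in Sen 1, 2 and 3, a ratio of 129 (35.3 to 1070.4). FMO2, a flavin monooxygenase of lung, had 47, 77 and 53 reads against none and was at least 18.2-fold lower in senescent cells. The carboxylesterase CES1, also without a senescent read, was at least 4.1-fold lower. By role, 7 of the 28 were enzymes, also including ENPP2, the producer of lysophosphatidic acid, and BCHE, butyrylcholinesterase. Another 7 were GTPase regulators or signalling adaptors, such as RASL12, ARAP2 and ARHGEF5. A further 6 were membrane proteins first known from nerve cells, such as LRRN1, SLITRK5 and EFNB3. No gene of the 28 belonged to any of the function lists below, against 6 of the 57. The share of all genes that these lists hold was not set beside these counts, so no difference is read from them.

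**Figure D3:**
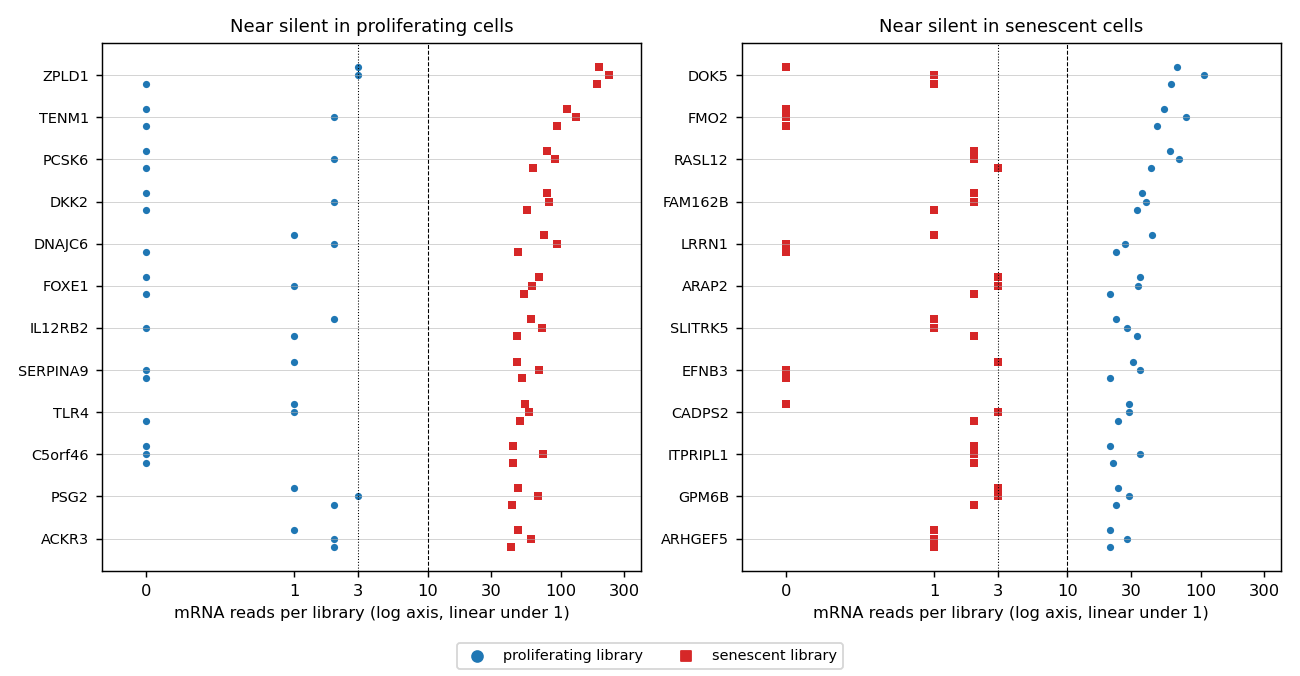
Reads per library (log axis, linear under 1) of the 12 genes with the highest level among those near silent in proliferating cells (left) and in senescent cells (right). Blue circles are proliferating and red squares senescent libraries, and the dotted and dashed lines mark the 3 and 10 reads of the rule. ZPLD1 has at most 3 reads in any proliferating library and at least 188 in each senescent one.

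Gene functions were then described with 29 lists, each given as the number of tested members called in either direction, to be read against 35.9% higher and 37.5% lower over all genes and a median fold change of -0.01. Some genes, such as CDKN1A, stand in more than 1 list. The medians ran from -1.84 for mitosis to 0.64 for insulin-like growth factor binding proteins, proteases and serpins.

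**Figure D4:**
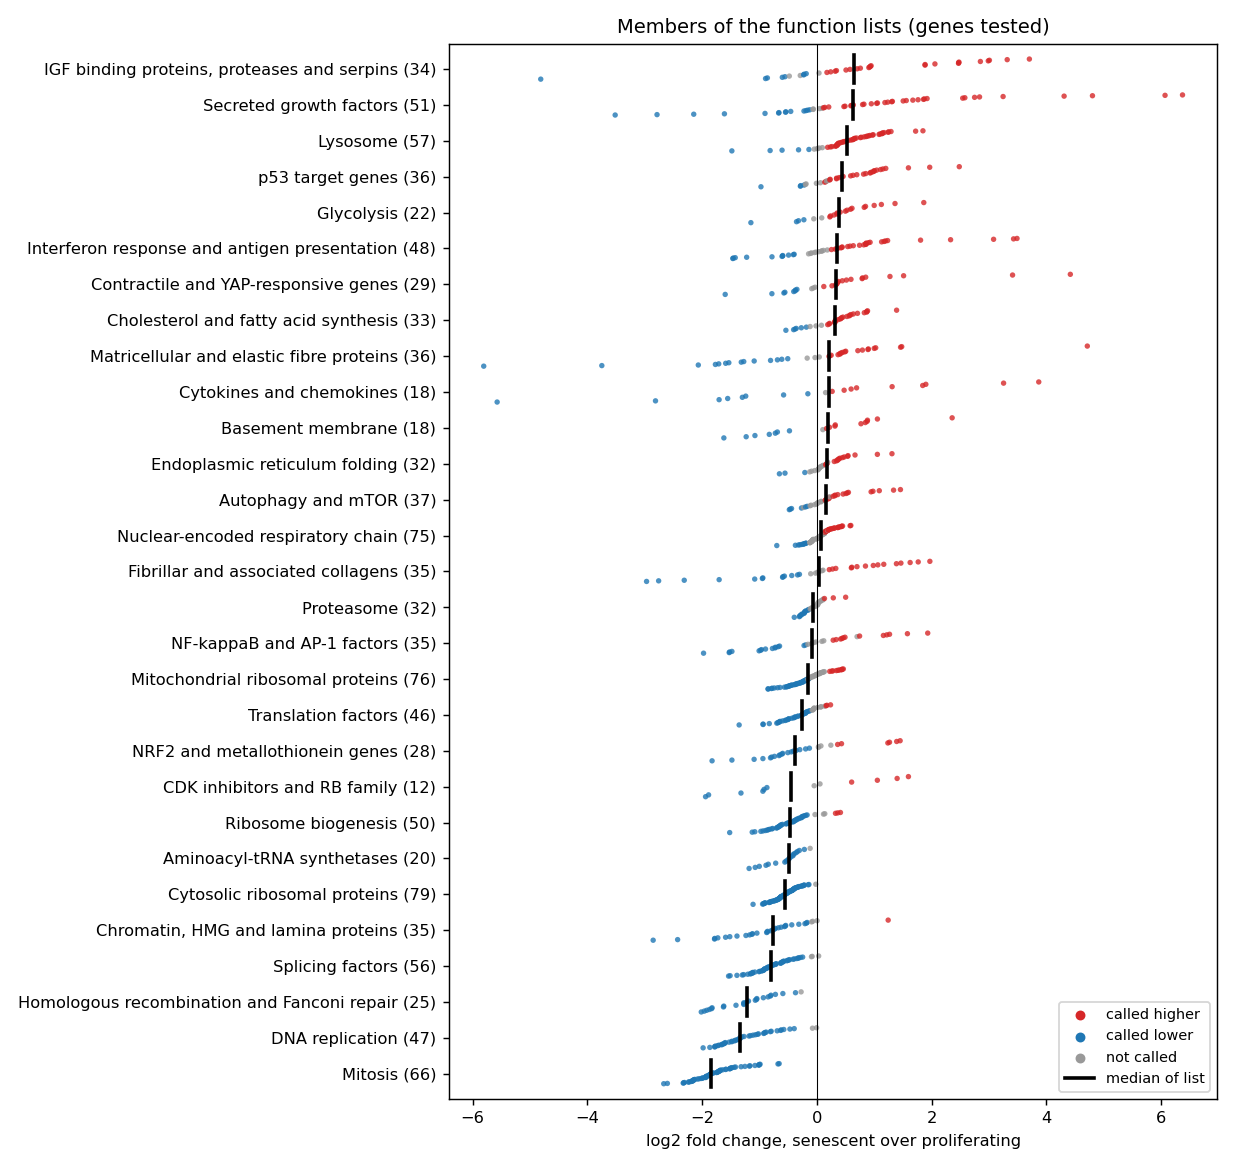
Log2 fold changes of senescent over proliferating cells for the tested members of 29 function lists, ordered by their median (black bar), with the number tested in brackets. Red and blue points were called higher and lower and grey points were not called. Mitosis has the lowest median at -1.84, with 66 of 66 members called lower.

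Genes of cell division fell as whole lists. All 66 mitosis genes were lower, 63 of them by at least 2-fold. CENPF, a kinetochore protein, went from 78.7, 87 and 99 CPM to 11.3, 14.4 and 15.7 CPM (log2 -2.67 ± 0.11), KIF20A, a kinesin of cytokinesis, fell by 2.60, and the actin-binding ANLN of the cleavage furrow went from 154 ± 7.46 to 44.3 ± 4.02 CPM. Of 47 DNA replication genes, 45 were lower and none higher, with a median of -1.33. MCM7 of the replicative helicase was at 130, 122 and 132 CPM against 36.9, 37 and 37.9 CPM (log2 -1.78 ± 0.07). RRM2, a ribonucleotide reductase subunit, fell by 1.03, and the origin recognition subunit ORC1 by 1.98. Not called were RFC5, a clamp loader subunit (-0.08), and SLBP, which binds histone mRNA (0.00). Of 25 genes of homologous recombination and the Fanconi pathway, 24 were lower (median -1.22), led by the recombination motor RAD54L (12.1 ± 0.547 to 3 ± 0.258 CPM) and the repair polymerase POLQ (13 ± 0.906 to 3.37 ± 0.298 CPM).

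RefSeq promoters of the GRCh38.p14 build, from 250 bases before to 50 after the start, were searched on both strands for short motifs. Matches are a description of letters, not of factor binding. The lists were built by known function and not by these letters. The contractile list, however, takes in genes known to respond to YAP, a partner of TEAD factors. TYMS, named for its window, makes thymidylate, PCNA is the sliding clamp of DNA polymerase and TOP2A is a DNA topoisomerase. An E2F site, TTTCCCGC or TTTGGCGC, was held by 17 of 41 matched replication promoters (41.5%) against 2.31% of all 27305 promoters and 3.71% of the 10562 matched promoters of genes tested. The CHR letters TTTGAA were held by 38 of 56 matched mitosis promoters (67.9%) against 15.4% of all and 9.82% of those tested, and CCAAT by 42 (75%) against 35.7% and 36.5%. CCAAT was also frequent in lists with more members higher than lower, at 77.4% of endoplasmic reticulum folding and 69.2% of cholesterol and fatty acid promoters. Promoters of homologous recombination and Fanconi genes held an E2F site in 3 of 20 (15%) and the CHR letters in 2 (10%). Among replication promoters 4.88% held the CHR letters, and among mitosis promoters 7.14% held an E2F site. The windows below are those of the called members with the highest mean CPM whose match lies before the start, with the matched letters in capitals on the gene's strand (GCGGGAAA is TTTCCCGC and TTCAAA is TTTGAA read on the other strand). They lie at chr7:100101568-100101593 (minus strand), chr18:657605-657630 (plus), chr20:5126665-5126690 (minus), chr7:36389833-36389856 (plus), chr10:128126438-128126461 (minus) and chr17:40418033-40418056 (minus), in this order. The match begins 187, 39 and 59 bases before the start in the replication genes and 20, 29 and 151 bases before it in the mitosis genes.
MCM7: gctcggaccGCGGGAAAcccggcgcc
TYMS: gggacggccGCGGGAAAaggcgcgcg
PCNA: gcgtcagggGCGGGAAAaggcgtgcg
ANLN: aaattcaaaTTTGAAcggctgcag
MKI67: tcgttttcgTTTGAAttgggcggg
TOP2A: attggtttaTTCAAAcaaaccccg

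Chromatin, HMG and lamina genes were lower for 31 of 35, with a median of -0.77, and 13 fell by at least 2-fold. Next to LMNB1 and HMGB1, HMGB2 fell from 112, 101 and 112 CPM to 17.4, 21.8 and 20.7 CPM (log2 -2.43 ± 0.09). The Polycomb methyltransferase EZH2 fell by 1.78, the lamin B receptor LBR by 1.59, the maintenance methyltransferase DNMT1 by 1.12 and the insulator protein CTCF by 0.86. One member rose, HMGA2, an architectural protein of AT-rich DNA, from 139, 134 and 163 CPM to 346, 335 and 352 CPM (log2 1.24 ± 0.08). Its relative HMGA1, at 0.00, was not called. The A-type lamin gene LMNA had overlapping groups (619 ± 38 and 546 ± 61.1 CPM), with a called change of -0.18 (edgeR adjusted p = 0.0553).

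Splicing factors and ribosomal proteins fell almost throughout. Of 56 splicing factors, 53 were lower and none higher (median -0.80). HNRNPA1, an abundant RNA-binding splicing repressor, was at 211, 207 and 217 CPM against 71, 76.9 and 70.5 CPM (log2 -1.54 ± 0.07), and HNRNPA2B1, with a mean of 719 ± 47.9 CPM in proliferating cells, fell to 331 ± 24.7 CPM. SRSF5, SNRPD3 and SRSF9 were the 3 that were not called. Of 79 cytosolic ribosomal proteins, 78 were lower (median -0.55), and RPL36A alone passed 2-fold. RPS2 of the small subunit was at 2534, 2629 and 2471 CPM against 1528, 1474 and 1466 CPM. Ribosome biogenesis was lower for 44 of 50 genes, led by the nucleolar methyltransferase FBL (114 ± 5.42 to 39.8 ± 3.22 CPM), while IMP3, NOP10 and RRP12 rose by 0.33 to 0.41. Many ribosomal protein genes have processed pseudogenes of near-identical sequence, and reads shared with them may have been split.

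Translation factors were mostly lower. Of 46, 33 were lower, 3 higher and 10 not called (median -0.26). Elongation factor EEF1A1 was at 14724, 15505 and 13797 CPM against 7687, 8291 and 7021 CPM (log2 -0.94 ± 0.08), and EEF2 fell by 0.66. EIF4EBP1, an inhibitor of cap-dependent initiation, fell the most (-1.35 ± 0.08), whereas the scaffolds EIF4G1 (0.17, with overlapping groups) and EIF4G3 (0.24) were called higher. Aminoacyl-tRNA synthetases were lower for 19 of 20 genes (median -0.48), for example WARS, from 454 ± 20.3 to 200.2 ± 11.9 CPM, and AARS, which fell by 1.07. ATF4 itself, a transcription factor that drives amino acid synthesis and tRNA charging genes, fell from 507 ± 52.5 to 345 ± 14.7 CPM, and asparagine synthetase ASNS, a textbook target named here after its value was seen, from 98, 103 and 102 CPM to 22.3, 26.9 and 21.3 CPM. The ATF4 letters TGATGCAA stood in 6 of 13 matched synthetase promoters (46.2%) against 0.923% of all promoters and 0.492% of those of genes tested. One of them lies before the start of AARS, which encodes alanyl-tRNA synthetase, 187 bases upstream at chr16:70289677-70289702 on the minus strand, with the match on the opposite strand in capitals.
AARS: ttctcgcagTTGCATCAgccaagtta

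Genes of energy metabolism moved in both directions. Of 22 genes of glycolysis, 16 were higher and 4 lower (median 0.38). The glucose transporter SLC2A1 was at 179, 197 and 199 CPM against 676, 673 and 745 CPM (log2 1.86 ± 0.07), the lactate exporter SLC16A3 rose by 1.36, and GAPDH went from 5218 ± 153 to 6920 ± 586 CPM. The lactate dehydrogenase subunits diverged, as LDHA rose by 0.50 and LDHB fell by 1.15. Of 75 nuclear-encoded respiratory chain genes 24 were higher, 10 lower and 41 not called, and their median of 0.07 turned to -0.02 with plain library totals. No member changed by 2-fold. Mitochondrial ribosomal proteins were lower for 40 and higher for 10 of 76, again with none past 2-fold, and MRPL3 fell most (110 ± 6.61 to 61 ± 5.75 CPM).

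Sterol and fatty acid synthesis genes were higher for 24 of 33 (median 0.33). The gains include the demethylation enzyme MSMO1 at 43.1, 49.9 and 61.1 CPM against 88.5, 105 and 91.5 CPM (0.88 ± 0.10), DHCR7 of the final step of cholesterol synthesis at 0.87 and the isomerase IDI1 at 0.87. The 6 that fell were the sterol regulator INSIG1 (-0.38) and 5 enzymes of fatty acid synthesis, elongation or desaturation, among them fatty acid synthase FASN (-0.40, with overlapping groups), acetyl-CoA carboxylase ACACA (-0.36) and the desaturase SCD (-0.54). Of 28 genes of the NRF2 antioxidant response and metallothioneins, 18 were lower and 6 higher (median -0.38). NQO1 went from 342 ± 17.2 to 96.3 ± 6.26 CPM, and the pentose phosphate pathway enzymes PGD (-1.09) and TKT (-0.94) fell as well. TALDO1 of the same pathway (0.03) was not called. The ferritin chains FTL and FTH1 fell by 0.30 and 0.41. The 6 that rose were 5 metallothioneins, zinc-binding proteins headed by MT2A (531 ± 42.5 to 1277 ± 62.1 CPM), and the glutathione synthesis gene GCLC (0.43).

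The lysosome was among the lists with the highest medians. Of 57 genes 47 were higher and 5 lower (median 0.52), and 11 rose by at least 2-fold. LGMN, the protease legumain, was at 23.8, 24.6 and 21.5 CPM against 78.3, 86.3 and 86.9 CPM (log2 1.85 ± 0.08), the fucosidase FUCA1 rose by 1.72, and cathepsin CTSB was at 1242, 1256 and 1241 CPM against 1615, 1613 and 1586 CPM. GLB1, the beta-galactosidase whose activity is the classical stain of senescent cells, went from 65.4, 65.2 and 65 CPM to 117, 111 and 104 CPM (0.76 ± 0.07). The cathepsin CTSH (-1.48) and the thioesterase PPT1 (-0.81) fell. The CLEAR element TCACGTGA, which is bound by the lysosomal regulators TFEB and TFE3, stood in 6 of 36 matched promoters (16.7%) against 1.04% of all promoters and 1.95% of those of genes tested. It lies 29, 26 and 60 bases before the start in LAMP1, a lysosomal membrane protein, CTSA, cathepsin A, and ATP6V0D1, a proton pump subunit, in windows at chr13:113297201-113297226 (plus strand), chr20:45891300-45891325 (plus) and chr16:67481201-67481226 (minus).
LAMP1: cccgcgggaTCACGTGAcgcccgggc
CTSA: cgccggagtTCACGTGActcgtacac
ATP6V0D1: cccttatggTCACGTGAggcgcttgc

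**Figure D5:**
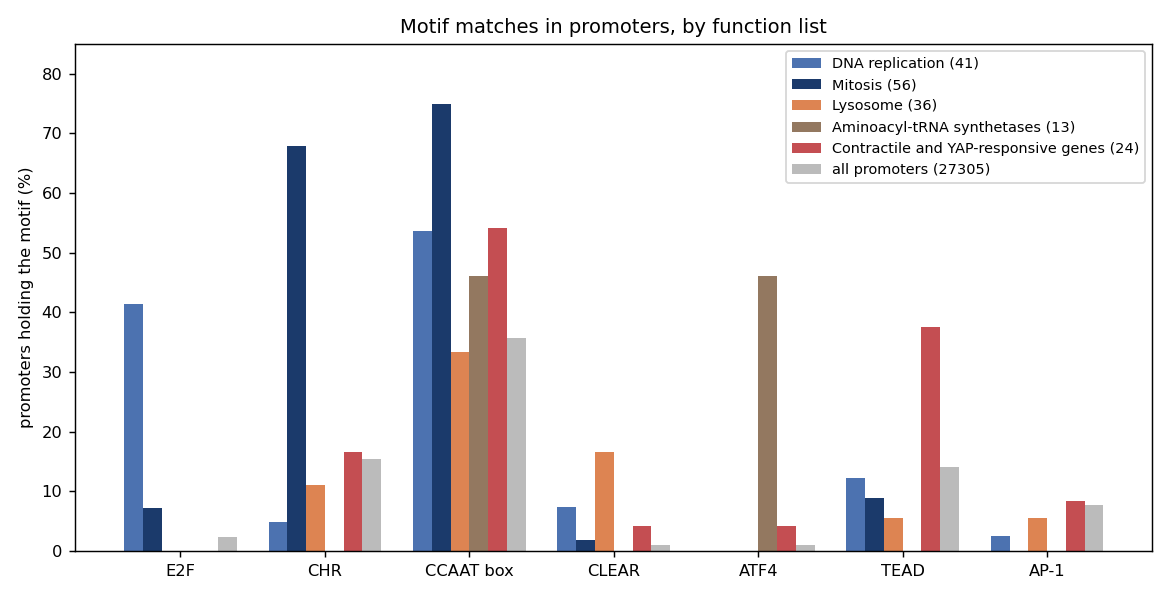
Percent of matched RefSeq promoters that hold each motif on either strand, for 5 function lists and for all 27305 promoters (grey), with the number of matched promoters in brackets. The CHR is held by 67.9% of mitosis promoters against 15.4% of all, and the E2F site by 41.5% of replication promoters against 2.31% of all.

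The plot of motif shares also holds the AP-1 letters TGANTCA, which stood in 7.76% of all promoters, in 4.35% of those of genes tested and in 8.33% of those of the contractile list, and none of the 7 motifs contains another. Other parts of protein turnover moved less. Autophagy and mTOR genes were higher for 19 and lower for 6 of 37 (median 0.16). The autophagosome protein MAP1LC3B rose from 145 ± 1.67 to 308 ± 18 CPM, the lipid-binding WIPI1 by 1.34 and the protease ATG4A by 1.46, while MTOR itself (0.07) was not called. Endoplasmic reticulum folding genes were higher for 17 and lower for 3 of 32 (median 0.17), among them the prolyl hydroxylase subunit and disulfide isomerase P4HB (1347 ± 43.7 to 2136 ± 60 CPM) and the oxidase ERO1A (1.05 ± 0.08). The abundant chaperone HSPA5 (-0.09) was not called and the stress factor DDIT3 fell by 0.65. Of 32 proteasome genes, 13 were lower, 3 higher and 16 not called (median -0.07), and PSMD2, a subunit of the regulatory particle, rose the most (483 ± 11.5 to 684 ± 32.1 CPM).

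Genes known as p53 targets were higher for 26 and lower for 4 of 36 (median 0.45). After TNFRSF10D, which went from 102 ± 2.31 to 573 ± 23.2 CPM, and CDKN1A, gains of at least 2-fold were found in the decoy receptor TNFRSF10C, the ribonucleotide reductase subunit RRM2B (1.20), the RNA-binding protein ZMAT3 (1.15), the receptor EDA2R (1.11) and the stress cytokine GDF15 (1.04). The p53 inhibitor MDM2 was called higher by 0.14 with overlapping groups, and the proapoptotic BAX fell by 0.22. The CDK inhibitors were divided. CDKN1A, CDKN2A, CDKN2B (1.40) and CDKN2D (1.05) rose, whereas CDKN2C (21.8, 18.8 and 20.6 CPM against 5.49, 4.6 and 5.95 CPM), CDKN1B (-0.94), CDKN1C (-1.32) and the CDK-associated phosphatase CDKN3 (-1.89) fell. RB1 (-0.05) and RBL2 (0.06) were not called, and RBL1 fell by 0.92.

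Secreted factors changed strongly, in both directions. Of 36 cytokines and chemokines only 18 had enough reads to be tested, and 9 of these were higher and 8 lower. CXCL8, the neutrophil chemokine interleukin-8, was at 1.83, 0.856 and 0.937 CPM in proliferating and at 9.82, 13.4 and 27.4 CPM in senescent libraries, a rise of 3.87 ± 0.38 in which Sen 3 was the highest. CSF2 (3.25), IL12A (1.90) and IL11 (1.31) rose too. IL6, a defining SASP cytokine, was lower in senescent cells, at 5.91, 7.3 and 6.5 CPM against 16.1, 15.7 and 17.2 CPM (-1.30 ± 0.12, edgeR adjusted p = 1.32e-08), and so were IL1B (-1.24) and LIF (-1.70). CXCL12 fell the most, from 23.8, 23.5 and 21.4 CPM to 0.528, 0.657 and 0.183 CPM (-5.57 ± 0.21). CXCL1, CXCL2 and CXCL3 averaged under 2 CPM in both states and were not tested, and TNF had no read.

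Of 51 secreted growth factors, 33 were higher and 14 lower (median 0.64), and 22 rose by at least 2-fold. WNT16, a WNT ligand, was at 0.731, 0.942 and 1.12 CPM against 62.9, 67 and 63.1 CPM (6.07 ± 0.15, edgeR adjusted p = 5.82e-18). Members of the TGF-beta superfamily stood on both sides. GDF6 (3.25), BMP2 (2.58), TGFB2 (1.92) and INHBA (1.87) rose, while GDF5 fell from 90.5, 104 and 89.6 CPM to 9.4, 9.2 and 6.22 CPM (-3.51 ± 0.12), TGFB3 fell by 1.61, and the BMP antagonist GREM1 went from 1954 ± 53.6 to 1045 ± 27 CPM. WNT ligands also diverged, as WNT5B (1.76) and WNT5A (1.06) rose and WNT2 fell by 2.78. DKK3, a secreted Dickkopf family protein, went from 478 ± 18 to 1409 ± 49.1 CPM, and the EGF-family ligand NRG1 rose by 2.75.

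Insulin-like growth factor binding proteins, proteases and serpins were higher for 23 and lower for 8 of 34 (median 0.64). Besides IGFBP3, IGFBP7 and SERPINE2, the metalloprotease inhibitor TIMP3 rose from 904, 873 and 856 CPM to 3244.5, 3181 and 3299 CPM (1.89 ± 0.07). IGFBP5 was at 15496, 17119 and 17082 CPM against 10792, 10721 and 12307 CPM, a fall of 0.56, and the antiangiogenic factor SERPINF1 fell by 4.81 (30.8 ± 3.25 to 1.10 ± 0.274 CPM). Of the collagenases, MMP1 was called higher by 0.18 with overlapping groups and MMP13 had no read, while the gelatinase MMP2 fell by 0.86 and the stromelysin MMP3 rose by 3.01 from 0.635 CPM.

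Interferon response and antigen presentation genes were higher for 27 and lower for 11 of 48 (median 0.36). IFI6, an antiviral protein of mitochondria and endoplasmic reticulum, was at 14, 13.4 and 11.7 CPM against 99.4, 101 and 130 CPM (3.08 ± 0.11), and SAMD9L rose by 1.81. The class I genes HLA-B (292 ± 16.4 to 529 ± 25.3 CPM), HLA-C (0.85) and HLA-E (1.17) and the peptide transporters TAP1 (0.74) and TAP2 (0.82) rose, and the immunoproteasome subunits PSMB8 (-0.61) and PSMB9 (-1.46) fell. Class I genes are close paralogs and their reads may have been split. OAS3 (-1.46) and OAS2 (3.49), both double-stranded RNA sensors, moved in opposite directions, the second from 0.22 CPM.

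NF-kappaB and AP-1 factors were higher for 12 and lower for 15 of 35 (median -0.08), near the 35.9% and 37.5% over all genes. NF-kappaB subunits fell for NFKB1 (-0.96), RELB (-0.98) and REL (-0.89) and rose for RELA (0.49), and the inhibitors NFKBIA (-0.77) and TNFAIP3 (-1.52) fell. EGR1, an immediate early factor, was at 70.9, 99.5 and 105 CPM against 24.2, 25 and 47.1 CPM. MAFK, a small MAF protein, rose from 51.9 ± 4.18 to 155 ± 25.4 CPM, while FOSL1 (-0.08) and CEBPB (0.12) were not called. The median of this list turned to 0.02 without Sen 2.

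Matrix genes moved in both directions. Fibrillar and associated collagen genes were higher for 15 and lower for 13 of 35, near the 35.9% and 37.5% over all genes. Their median of 0.04 turned to -0.06 with plain library totals. COL1A1 and COL1A2, the chains of collagen I, were not called (-0.11 ± 0.09 and 0.01 ± 0.08). COL3A1 (-0.94) and the collagen VI chains COL6A1 (2762 ± 215 to 1827 ± 210 CPM), COL6A2 (-0.59) and COL6A3 (-1.08) fell, and COL14A1, which coats fibrils, fell by 2.97 ± 0.15. Members of this list that rose, chosen here after their values were seen, include the lysyl hydroxylases PLOD2 (313, 323 and 382 CPM against 1079, 1243 and 1142 CPM) and PLOD1 (1.17), the prolyl hydroxylases P3H2 (1.97) and P4HA2 (1.47), and the crosslinking oxidase LOX (1.06).

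Matricellular and elastic fibre genes were higher for 19 and lower for 14 of 36 (median 0.22), with the extremes POSTN and, in the other direction, the microfibril protein MFAP5 (0.437 ± 0.180 to 12.3 ± 0.677 CPM). Elastin, ELN, fell from 18.3, 15.2 and 13.4 CPM to 0.528, 0.949 and 1.92 CPM, while the fibrillins FBN1 (0.71) and FBN2 (0.89) rose. SPARC went from 3568 ± 61 to 6648 ± 332 CPM, and THBS1 (1.46) and CCN2 (1.48) rose, while THBS2 (-1.59) and tenascin TNC (-1.09) fell. FN1 was called at 0.25 (edgeR adjusted p = 0.0569), although its groups overlapped. Basement membrane genes were higher for 10 and lower for 7 of 18. The collagen IV chain COL4A1 was at 1115, 1175 and 1261 CPM against 2100, 1954 and 2327 CPM, and the laminin chains LAMA2 (-1.62) and LAMA4 (-1.08) and the linker NID1 (-0.83) fell.

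Contractile and YAP-responsive genes were higher for 18 and lower for 8 of 29 (median 0.34). After ANKRD1, the actin-binding SYNPO2 rose from 13, 11 and 11.9 CPM to 126, 119 and 135 CPM (3.41 ± 0.09), and TAGLN, a smooth muscle calponin-like protein, went from 2117 ± 195 to 3676 ± 54 CPM. Caldesmon CALD1 (1.27) and tropomyosin TPM1 (0.85) rose too. Nonmuscle myosins fell, MYH10 by 1.60 and MYH9 by 0.40, as did filamin FLNA (-0.35, with overlapping groups). Among the other YAP-linked members, F3 (1.51), LATS2 (0.79) and TEAD1 (0.36) rose. AXL (-0.57) and AJUBA (-0.56) fell, and AMOTL2 (-0.03) was not called. The letters GGAATG of TEAD factors, the DNA-binding partners of YAP, stood in 9 of 24 matched promoters (37.5%) against 14% of all and 10.9% of those of genes tested. Part of this list was chosen for a known response to YAP, so this share is not independent of that choice. Among called members with the match before the start, those with the highest mean CPM were MYH9 (70 bases before, chr22:36388023-36388046, minus strand) and CALD1 (194 bases before, chr7:134779431-134779454, plus strand), of which the first fell and the second rose.
MYH9: tcccggctgGGAATGgtcccgcgg
CALD1: catgcctagGGAATGacaggcatc

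The part of the mRNA pool that each function takes was read from the share of mRNA reads. Cytosolic ribosomal proteins took 6.08% ± 0.309 of reads in proliferating and 3.79% ± 0.405 in senescent libraries (SD, n = 3 each), translation factors 3.23% ± 0.131 and 1.97% ± 0.0721, splicing factors 1.07% ± 0.0370 and 0.591% ± 0.00881, and mitosis genes 0.337% ± 0.00580 and 0.0946% ± 0.00579. Shares were higher in senescent cells for matricellular and elastic fibre genes from 1.90% ± 0.0758 to 2.61% ± 0.0755, for insulin-like growth factor binding proteins, proteases and serpins from 3.09% ± 0.0733 to 3.69% ± 0.0745, for p53 targets from 0.232% ± 0.00326 to 0.417% ± 0.00499, and for the lysosome from 0.790% ± 0.00298 to 1.10% ± 0.0266. In these 8 lists the 3 senescent shares did not overlap the 3 proliferating ones, while the shares of the respiratory chain, fibrillar collagens, basement membrane and NF-kappaB and AP-1 factors overlapped. A few abundant members can carry such a share. CDKN1A (505 to 1528 CPM) and TNFRSF10D (102 to 573 CPM) weigh heavily in that of p53 targets, and EEF1A1, given above, in that of translation factors.

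A split by the stem of gene symbols alone, into 90 stems with at least 15 genes used no hand-made list. The lowest median was that of nucleoporins (NUP), with 19 of 19 genes lower (-0.60), followed by the ribosomal stems RPS (35 lower and 5 higher of 43) and RPL (49 lower and none higher of 51). RNA-binding motif proteins (RBM) were lower for 26 of 35 genes. The stem RPS also takes in the kinases named RPS6K. Zinc finger proteins (ZNF) were lower for 212 and higher for 47 of 457 (-0.25). Membrane proteins leaned upward. Solute carriers (SLC) were higher for 124 and lower for 50 of 233, TMEM genes for 99 and 34 of 187, RAB GTPases of vesicle traffic for 37 and 12 of 62, G protein-coupled receptors (GPR) for 19 and 4 of 26, and tetraspanins (TSPAN) for 11 and 3 of 15 (median 0.85). The signs of these medians were the same with plain library totals, where SLC was at 0.14, TMEM at 0.16 and RAB at 0.17. The highest median, 2.05, was that of the HIST1 histone genes, with 15 of 16 higher. Replication-dependent histone mRNAs normally lack a poly(A) tail, the copies are nearly identical, and their values in poly(A)-selected RNA are uncertain.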

How the data were processed

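RNA-seq libraries of proliferating and senescent IMR90, 3 each, were compared, with groups and replicate numbers taken from sample titles. The deposited tables give, per gene symbol, expected counts of reads that the authors assigned to 5′ UTR, CDS, 3′ UTR and non-coding classes, without scaling to depth. Per the labels, the submitters' processing notes name cutadapt 1.18, Bowtie 1.0.1, SAMtools 1.8 and DESeq2 1.22.2. Genome build, annotation, strand rule and treatment of multiply placed reads are not given in the sources used here, so overlapping and antisense genes cannot be told apart. The UTR and CDS values of a gene were summed and rounded. The ribosome footprint tables were not used.

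Genes passing filterByExpr were tested with edgeR 4.0.16 (R 4.3.3; glmQLFit, glmQLFTest, TMM, two-sided) and called at adjusted p under 0.15. Lists are described by counts and medians, with no p-value. The test was checked on simulated counts in which few genes changed, as many upward as downward. This check does not cover the scaling where most genes change, as in these data. Alternatives were DESeq2 1.42.0, limma 3.58.1 (voom), RLE factors, library totals, other filters, CDS reads, a replicate block and leaving out each library. Intervals and floors of 3 counts cover counting error only. Counts of same-state libraries differed beyond sampling noise, with chi-square over degrees of freedom at 3.04 or more in every pair.

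The members and lists were chosen with earlier results of these data known. Named genes were, by rule, the 12 highest and 12 lowest fold changes among called, non-overlapping genes of at least 100 CPM, the 10 near-silent genes of highest level per direction, per list the 2 called members of highest level and the 2 of largest change with at least 5 CPM, and HMGB1, CDKN1A, CDKN2A, LMNB1 and MKI67. Other genes are named as examples chosen after their values were seen. Promoter sequences are from RefSeq (GRCh38.p14), which matched 10562 of the 12840 tested symbols. Some genes are not reported here.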

Additional observations from a re-analysis of the deposited data

How the results depend on the processing

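The number of called genes lay between 8354 (adjusted p under 0.05) and 10178 (every gene with at least 1 read) in settings that kept the mRNA sum and its filter or loosened it, with 8731 by DESeq2, of which 8719 were among the 9429. It was 7296 of 9581 at a mean of at least 100 counts and 8419 with CDS reads only. Without 1 library it lay between 8882 and 9394. The share of higher genes among them moved from 48.9% to 40.4% with library totals. The replicate block gave 9462 called genes. The numbers only name the samples, since deviations of same-numbered libraries correlated at 0.01, -0.07 and 0.09, and samples did not all correlate best with their own number. Of 2312 recomputed fold changes of named genes, none changed sign and 24 lost the threshold.

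These 3 lists changed the sign of their median. With library totals the respiratory chain had 37 called genes and a median of -0.02, and fibrillar collagens 28 and -0.06. Calls in the NF-kappaB and AP-1 list lay between 27 and 30 when 1 library was left out, and its median was 0.02 without Sen 2. Of the homologous recombination list, 12 genes reached a mean of 100 counts and all 12 were called, against 24 of 25 without this filter, so fewer were tested. With limits of 0.5 and 1 CPM in place of 3 and 10 counts, 89 genes were near silent in proliferating and 53 in senescent cells. The cause of the other changes was not tested. Depth limits what can be said of near-silent genes, where 3 reads correspond to 0.219 to 0.365 CPM.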
